A study of Mus musculus with 4 samples.

Results

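Genes of the Notch pathway were examined in RNA from the bone marrow of mature and elderly mice. The 10 genes are the receptors Notch1, Notch2 and Notch3, the ligands Jag1, Jag2 and Dll1, and the target genes Hes1, Hey1, Hey2 and Heyl. They were chosen by name, with earlier results of these data known, among 33924 gene symbols with a transcript in the count tables. All 10 were found and passed the filter of more than 2 counts over the libraries. The groups were wild-type (WT) C57Bl/6 mice, male per the study's methods, aged 3 months (mature, 2 libraries) and 24 months (elderly, 2 libraries), with no other allele or agent. The labels give RNA of 3 to 4 mice per group, and the study's methods describe this RNA as pooled. The sample titles name a mouse 1 and a mouse 2 at each age, which is not reconciled with the pooling, so it is not settled whether the spread between libraries, which is all the p-values measure, is between mice or technical. The labels name whole bone marrow, whereas the study's methods describe a sort for marrow cells that carry the leptin receptor (LEPR+) and lack Ter119, CD31 and CD45 (Lin-). The study's methods describe poly(A) selection, except for named samples that were processed as total RNA. An exception is named by an age in weeks that is close to 3 months, without a link to these titles. It is not settled whether the mature libraries were prepared as total RNA. Such a difference could not be told apart from age. The libraries held between 10472117 and 15650518 counts.

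Notch receptors are membrane proteins that are cut when a ligand on a neighbouring cell pulls on them, first by an ADAM protease and then by gamma-secretase. The freed intracellular part enters the nucleus, joins the DNA-binding protein RBPJ and a Mastermind coactivator, and turns on genes of the HES and HEY families, which encode basic helix-loop-helix repressors. In bone marrow stroma the pathway is known for holding back the differentiation of skeletal progenitors and for presenting ligands to blood-forming cells.

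Notch3 had the highest CPM of the genes, also per countable kilobase, and did not differ detectably with age, whereas Hey2 and Hey1 were lower in elderly cells. Hey2 fell 7.63-fold, from 10.3 ± 0.0270 CPM (read counts relative to a fixed library size, after edgeR's TMM scaling; SD, n = 2) to 1.35 ± 0.514 CPM (SD, n = 2). Hey1 fell 1.97-fold, from 44.7 ± 4.62 CPM (SD, n = 2) to 22.7 ± 0.735 CPM (SD, n = 2). No receptor and no ligand passed the test. These are bulk values, in which fewer cells of a type and less RNA per cell cannot be told apart.

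Of the 10 genes, 2 were called lower and 0 higher in elderly cells at an adjusted p under 0.05 from edgeR's two-sided quasi-likelihood test, adjusted over the 21340 genes tested. With an unadjusted p there were 5 under 0.05, against 2399 of the 21340 genes tested. DESeq2 also called 2 of the 10, against 709 of all genes (3.32%). Across all tested genes, 0.450% were called lower, 2.28% higher and 2.73% in either direction. The median log2 fold change was −0.37 over the 10 genes and 0.016 over all genes tested, where a negative value is a lower level in elderly cells. The ages did not overlap for 6 of the 10 genes, against 40.9% of all genes tested: elderly libraries were below the mature ones for 4 (18.0% of all genes) and above them for 2 (22.9%). No exact permutation test over these libraries can reach a p under 0.333, and the adjusted p-values therefore depend on the variance edgeR shares among genes.

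**Figure D1:**
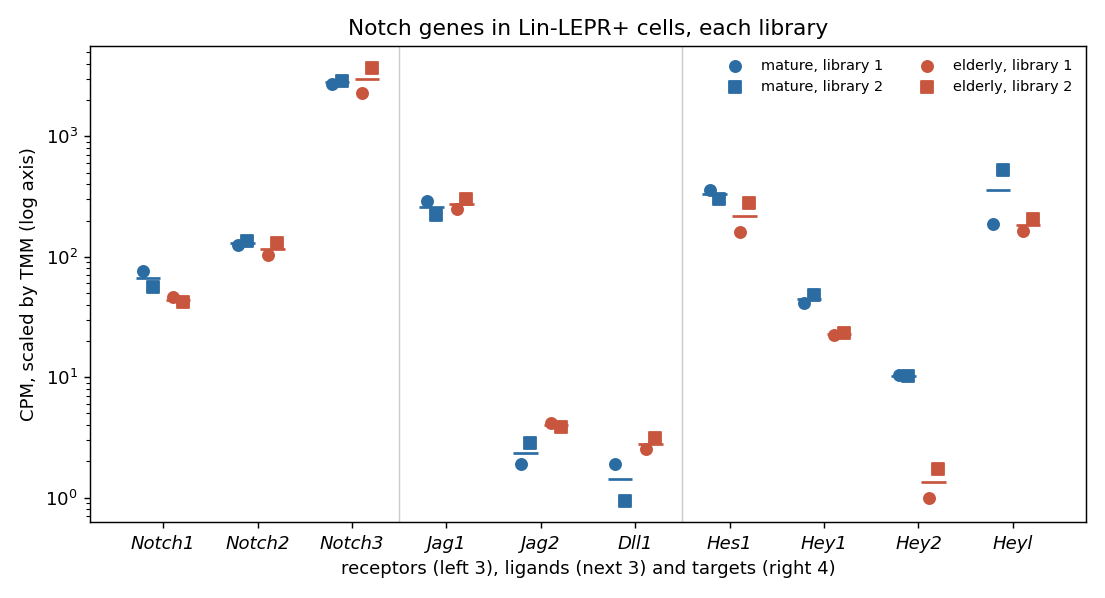
CPM (scaled by TMM factors, log axis) of the 10 genes in each library, with mature libraries in blue, elderly libraries in red and a short line at each mean of 2 libraries. Notch3 lies between 2302 and 3728 CPM, and the Hey2 points of the elderly libraries lie at 0.988 and 1.72 CPM below the mature ones at about 10.3 CPM.

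Hey2 encodes a repressor of the HEY group that is known from arteries and the developing heart, and its start region is shown because the gene differed most with age among the 10. The sequence holds 250 bases before and 50 bases from the annotated start site on (RefSeq, GRCm38, minus strand, chr10:30842734-30843033). Capitals mark both matches to GTGGGAA, a long form of the letters that RBPJ prefers, on either strand. The start region of Notch3, the most abundant member, is given for comparison (RefSeq, GRCm38, minus strand, chr17:32166841-32167140), with capitals at the matches to the N-box CACNAG, letters bound by HES proteins.
Hey2: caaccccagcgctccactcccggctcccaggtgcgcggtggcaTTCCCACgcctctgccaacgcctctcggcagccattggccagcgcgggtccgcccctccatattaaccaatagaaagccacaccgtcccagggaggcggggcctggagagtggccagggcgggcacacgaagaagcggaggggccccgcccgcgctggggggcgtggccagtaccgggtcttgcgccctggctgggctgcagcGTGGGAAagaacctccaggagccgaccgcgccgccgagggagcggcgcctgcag
Notch3: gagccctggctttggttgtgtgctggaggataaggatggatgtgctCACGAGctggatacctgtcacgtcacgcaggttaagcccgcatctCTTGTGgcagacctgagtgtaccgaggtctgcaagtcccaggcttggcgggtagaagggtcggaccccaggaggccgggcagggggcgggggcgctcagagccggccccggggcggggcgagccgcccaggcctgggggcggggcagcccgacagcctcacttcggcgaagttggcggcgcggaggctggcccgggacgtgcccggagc

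The matches to GTGGGAA in Hey2 start at positions −207 (on the strand opposite to the gene) and −4 (on the gene's own strand), counted from the start site as +1. Of 32851 start regions of this length in the RefSeq table, 6.38% held GTGGGAA on either strand and 0.256% held it at least 2 times. The shorter core TGGGAA, which lies within GTGGGAA, was in 25.6% of them. The table held 8 start regions for 7 of the 10 genes, and neither form was found in those of Notch1, Notch2, Notch3, Jag1, Jag2 and Dll1. Hes1, Hey1 and Heyl had no start region in that table, so these targets could not be searched for matches. CACNAG, which overlaps the E-box-like letters CACGNG at 1 place in Notch3, was found in the start regions of Notch1, Notch2, Notch3 and Dll1 and in 42.5% of all regions. CACGNG was found in those of Notch2, Notch3, Jag1, Jag2 and Dll1 and in 27.5% of all regions. A match of letters is a description of the sequence and not a measured site.

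How much of each gene could be counted differed widely. The deposited counts are per Ensembl transcript, and bases that several transcripts share gave no counts: all 25621 matched transcripts whose every base another transcript also covers were at 0 in every library. These include 807 that do have a base of their own on their strand and share it only with the opposite one, so that reads of both strands could not be told apart there. Hey1, Hey2 and Jag2 have 1 transcript each, and 100% of its bases could be counted. Notch3 also has 1 transcript, of which 93.9% could be counted, the rest being shared with the opposite-strand gene Gm17276. For Jag1, Heyl and Hes1, the protein-coding transcripts kept 77.8%, 92.2% and 61.1% of the longest transcript, and for Dll1, 27.8%, with 867 exonic bases shared with the opposite-strand A930024N18Rik.

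Notch1 and Notch2 were affected most. Notch2 has 2 protein-coding transcripts, and its counts came from the 630 coding bases that 1 of them has alone, 6% of its length, of which 506 lie in 1 stretch (NCBI37/mm9, chr3:97939249-97939754). None of the 4 long protein-coding transcripts of Notch1 had a countable base, the fifth had 139, and all were at 0 in every library. Of the Notch1 counts, 91.0% belonged to a transcript annotated as a retained intron, with a countable stretch of 3726 bases inside the gene (NCBI37/mm9, chr2:26353675-26357400), and the rest to short non-coding transcripts. The Notch1 value is therefore not a count of its messenger RNA, and the counts of its coding transcripts were not read as low expression.

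**Figure D2:**
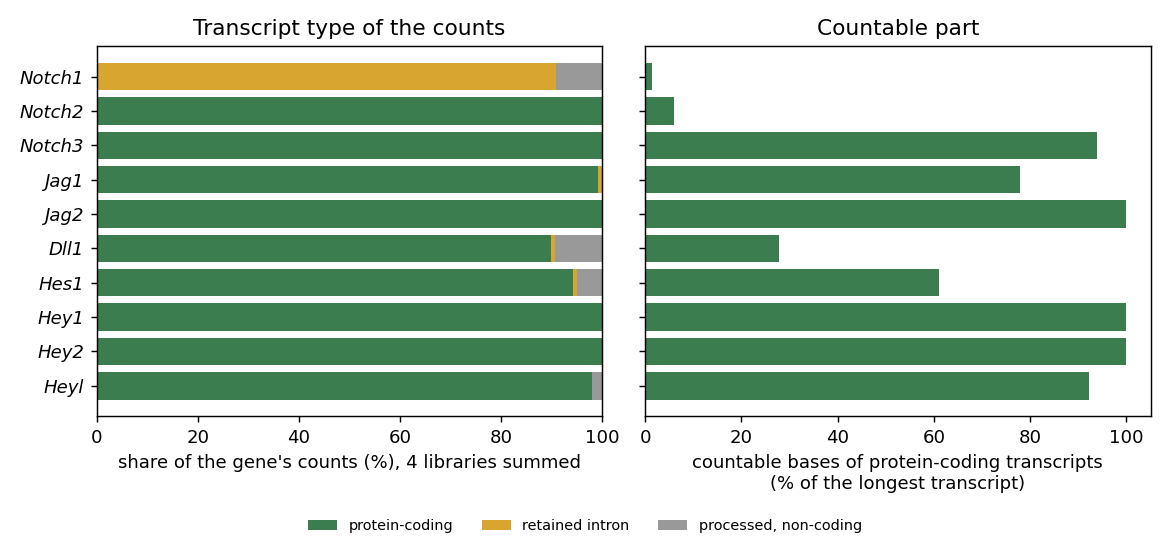
Left, the share of each gene's counts (%, 4 libraries summed) by annotated type of transcript. Right, the countable bases of its protein-coding transcripts as a percentage of its longest transcript. Notch1 stands apart, with 91.0% of its counts from a retained-intron transcript, and Notch2 with 6% of its length countable.

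Among the receptors, Notch3, known from mural cells and stroma (chr17:32257765-32303825 on NCBI37/mm9, as all gene positions here, minus strand), gave 31906 and 33444 counts at 3 months and 25632 and 56494 counts at 24 months. Scaled, mature mice averaged 2807 ± 86.1 CPM (SD, n = 2), and elderly mice averaged 3015 ± 1008 CPM (SD, n = 2). Elderly library 1 lay below and elderly library 2 above both mature libraries. Between the ages the log2 fold change was 0.10 (95% interval −0.41 to 0.62, edgeR adjusted p = 0.940), and it turned to −0.29 without elderly library 2.

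Notch2, a receptor that many blood and stromal cells carry (chr3:97817461-97954290, plus strand), was counted 1444 and 1571 times in mature and 1148 and 1979 times in elderly libraries. On the CPM scale these were 124 and 135 in mature and 103 and 131 in elderly mice, so the ages overlapped. Its log2 fold change was −0.15 (95% interval −0.59 to 0.29, edgeR adjusted p = 0.881). The Notch1 region (chr2:26313423-26372183, minus strand), mostly the retained intron, gave 889 and 650 counts in mature and 513 and 637 counts in elderly libraries, or 76.5 and 55.7 CPM in mature and 46.1 and 42.0 CPM in elderly libraries. Both elderly libraries lay below both mature ones, but the log2 fold change of −0.59 (standard error 0.23) did not pass the test (edgeR adjusted p = 0.295). Counted alone, the retained-intron transcript had a log2 fold change of −0.61 (edgeR adjusted p = 0.453 over all transcripts).

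The ligands split by abundance. Jag1, the ligand best known from bone-forming and stromal cells (chr2:136907192-136942380, minus strand), was counted 3407 and 2570 times in mature libraries, a mean of 257 ± 51.5 CPM (SD, n = 2), and 2793 and 4533 times in elderly libraries, a mean of 275 ± 34.1 CPM (SD, n = 2). The elderly values of 251 and 299 CPM overlapped the mature values of 293 and 220 CPM. Its log2 fold change was 0.099 (95% interval −0.36 to 0.56, edgeR adjusted p = 0.937). The sign turned without mature library 2 (−0.13) or elderly library 2 (−0.034).

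Jag2 and Dll1 were near the lower end of what this depth can count. Jag2, a close relative of Jag1 (chr12:114146801-114167706, minus strand), reached 22 and 33 counts at 3 months (1.89 and 2.83 CPM) and 46 and 58 counts at 24 months (4.13 and 3.83 CPM). Dll1, a Delta-like ligand (chr17:15504318-15513836, minus strand), reached 22 and 11 counts at 3 months (1.89 and 0.943 CPM) and 28 and 47 counts at 24 months (2.52 and 3.10 CPM). In both genes the elderly libraries lay above the mature ones. Neither passed the test, with log2 fold changes of 0.75 (standard error 0.44, edgeR adjusted p = 0.604) for Jag2 and 0.98 (standard error 0.54, edgeR adjusted p = 0.561) for Dll1. The exact 95% Poisson interval of Dll1 in mature library 1 (1.19 to 2.87 CPM) overlapped that in elderly library 1 (1.67 to 3.64 CPM). Such intervals cover counting error only.

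All 4 target genes had a negative log2 fold change, and 2 of them passed the test. Hey2 (chr10:30552165-30562607, minus strand) was counted 120 times in each mature library, and 11 and 26 times in the elderly ones. The exact 95% Poisson intervals were 8.56 to 12.3 CPM and 8.53 to 12.3 CPM in the mature, and 0.493 to 1.77 CPM and 1.12 to 2.51 CPM in the elderly libraries, so that the ages were apart by more than counting error. Hey2 fell by 2.90 on the log2 scale, with a standard error of 0.40 (edgeR adjusted p = 1.96e-03). The log2 fold change lay between −3.37 and −2.60 when 1 library was left out. The call was lost without elderly library 1 (edgeR adjusted p = 0.0988) and without elderly library 2 (edgeR adjusted p = 0.602), when 1 elderly library remained and 41 and 0 genes were called in all, with 1959 and 1638 at an unadjusted p under 0.05.

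Hey1, the HEY gene known as a direct Notch target in bone and vessels (chr3:8663362-8667039, minus strand), was counted 481 and 559 times at 3 months and 247 and 352 times at 24 months. The elderly values of 22.2 and 23.2 CPM lay below the mature values of 41.4 and 47.9 CPM. Hey1 fell by 0.98 on the log2 scale, with a standard error of 0.23 (edgeR adjusted p = 0.0405). This call lay close to the threshold. It was lost in the fit per transcript, in which the same counts were adjusted over 42413 transcripts (edgeR adjusted p = 0.0915), under the exact test with the dispersion of 0.2 that the study's methods give, and without mature library 2, elderly library 1 or elderly library 2 (edgeR adjusted p = 0.160, 0.247 and 0.602). Hey2 remained called in the fit per transcript (edgeR adjusted p = 3.29e-04, log2 fold change −2.85), the 1 transcript called of the 10 genes' 24 tested. Across all transcripts tested, 0.222% were called lower, 1.44% higher and 1.66% in either direction.

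Hes1, the most widely used readout of Notch signalling and also a target of other pathways (chr16:30064470-30067882, plus strand), gave 4180 and 3527 counts from mature libraries and 1796 and 4221 counts from elderly libraries. These were 360 and 302 CPM in mature and 161 and 279 CPM in elderly mice. Both elderly libraries lay below both mature ones, while the elderly libraries differed more from each other than elderly library 2 did from the mature mean of 331 CPM. The log2 fold change was −0.59 (standard error 0.25, edgeR adjusted p = 0.372). It was −0.27 without elderly library 1 and −1.04 without elderly library 2.

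Heyl, a HEY-related target known from mural cells (chr4:122910799-122927118, plus strand), had the largest ratio between libraries of 1 age among the 10 genes. Its counts were 2186 and 6113 at 3 months and 1805 and 3093 at 24 months, or 188 and 524 CPM and 162 and 204 CPM. Mature library 2 stood above the other three, among which the ages overlapped. The log2 fold change of −0.96 (standard error 0.35) did not pass the test (edgeR adjusted p = 0.255). It was −0.081 without mature library 2 and −1.52 without mature library 1 (edgeR adjusted p = 3.93e-04 in the latter), so that its size was set by which mature library was used. It passed without a filter on low counts (edgeR adjusted p = 5.64e-04). DESeq2 gave an adjusted p of 0.749.

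**Figure D3:**
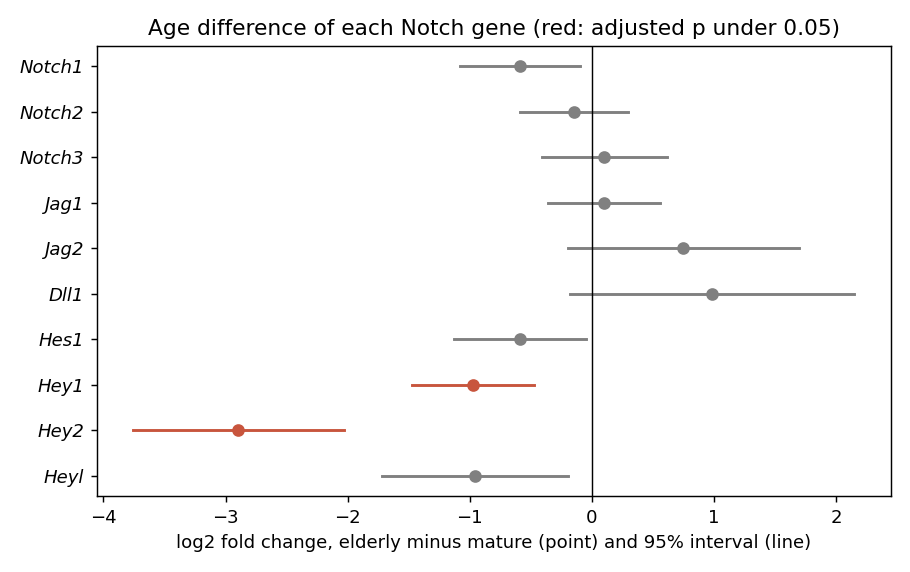
Log2 fold change of each gene between the ages (points; negative is lower in elderly mice) with its 95% interval from edgeR's quasi-likelihood fit (lines), red where the adjusted p is under 0.05. Hey2 and Hey1 are red, and the intervals of Notch2, Notch3, Jag1, Jag2 and Dll1 include 0. Those of Notch1, Hes1 and Heyl exclude 0 although these genes were not called, because the intervals are not adjusted for the number of genes tested.

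**Figure D4:**
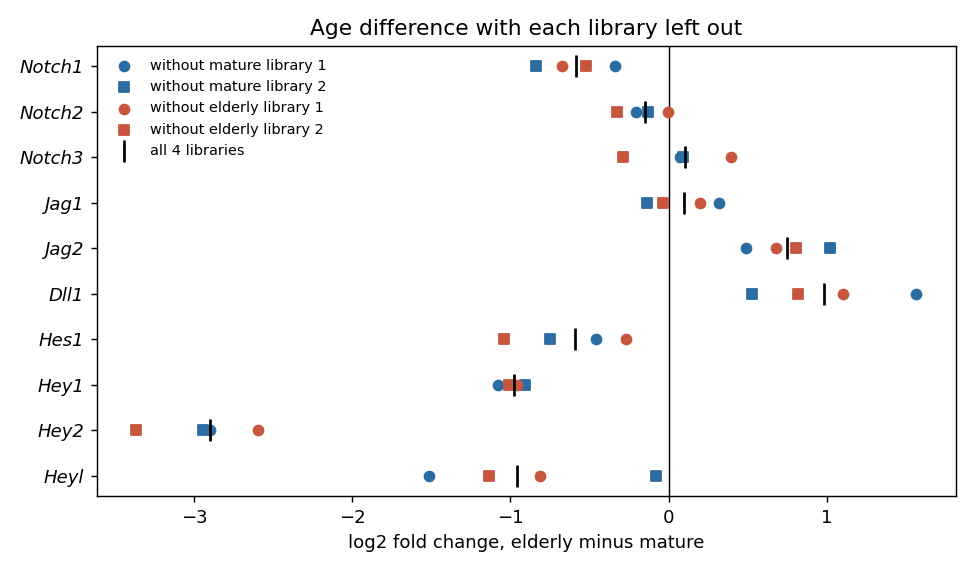
Log2 fold change of each gene with all 4 libraries (black bars) and with 1 library left out (blue, without a mature library; red, without an elderly library; circles for library 1, squares for library 2). Hey1 stays between −1.08 and −0.91, whereas Heyl runs from −1.52 to −0.081 and Notch3 from −0.29 to 0.39.

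To set the levels of different genes side by side, CPM was divided by the countable kilobases of each gene. Fragments that touch shared bases are lost, which can lower the values of genes whose countable stretches are short, such as Notch2 and Dll1. In mature mice, Notch3 was highest with 371 ± 11.4 CPM per kb (SD, n = 2). Hes1 (226 ± 27.6) and Notch2 (206 ± 11.7) followed, and their libraries overlapped. Below them came Heyl (74.8 ± 49.9) and Jag1 (56.1 ± 11.3), which also overlapped, and then Hey1 (20.3 ± 2.10), the Notch1 region (14.4 ± 3.19) and Hey2 (4.04 ± 0.0106). Dll1 (1.02 ± 0.483) and Jag2 (0.583 ± 0.163) were lowest and overlapped.

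In elderly mice the order on this scale was Notch3 (399 ± 133 CPM per kb; SD, n = 2), Notch2 (185 ± 30.8), Hes1 (150.0 ± 56.5), Jag1 (60.1 ± 7.45), Heyl (38.5 ± 6.23), Hey1 (10.3 ± 0.333), the Notch1 region (9.57 ± 0.622), Dll1 (2.02 ± 0.298), Jag2 (0.982 ± 0.0532) and Hey2 (0.530 ± 0.202). Of these neighbours, only Notch2 and Hes1 overlapped. Hey2 was thus above Dll1 and Jag2 in every mature library and below both in every elderly library. This order was not tested.

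The rest of the pathway was taken from a list of 73 genes, of which 68 could be tested. Of these, 1 was called higher and 2 lower in elderly cells (4.41% against the 2.73% of all genes), and 65 did not pass. The median log2 fold change over the list was −0.081. The calls were Tle1 and Tle2, corepressors of the Groucho family that HES proteins recruit, and Mfng, a fringe glycosyltransferase that modifies Notch receptors and is known from lymphocytes.

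Tle1 gave 698 and 468 counts at 3 months and 237 and 249 counts at 24 months, or 60.1 and 40.1 CPM and 21.3 and 16.4 CPM. It fell by 1.41 on the log2 scale (standard error 0.27, edgeR adjusted p = 0.0134). Tle2 gave 949 and 1414 counts at 3 months and 582 and 739 counts at 24 months, or 81.7 and 121 CPM and 52.3 and 48.8 CPM. It fell by 1.01 on the log2 scale (standard error 0.23, edgeR adjusted p = 0.0356). In both genes each elderly library lay below each mature one. Their relative Tle3 averaged 79.6 and 79.8 CPM in mature and elderly mice and did not pass (edgeR adjusted p = 0.998).

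Mfng rose from 16 and 8 counts at 3 months to 70 and 56 counts at 24 months, or from 1.38 and 0.686 CPM to 6.29 and 3.70 CPM. This log2 fold change was 2.26 (standard error 0.52, edgeR adjusted p = 0.0374). Its relative Lfng was far more abundant, with a mean of 287 ± 32.7 CPM (SD, n = 2) at 3 months against 261 ± 67.5 CPM (SD, n = 2) at 24 months (edgeR adjusted p = 0.909). Of the plasma-cell markers, 2 of 5 were called higher: Igj, the joining chain of secreted antibodies, averaged 3.48 CPM at 3 months and 56.9 CPM at 24 months (edgeR adjusted p = 5.57e-05), and Prdm1, a plasma-cell regulator, was counted 0 times in each mature library and 45 and 51 times in the elderly ones (edgeR adjusted p = 0.00190). The plasma-cell sum was 144 and 119 CPM in mature and 156 and 167 CPM in elderly libraries. Most of it was Sdc1 (76.6 and 62.9 CPM in mature, 42.2 and 55.5 CPM in elderly) and Xbp1 (58.3 and 51.2 CPM, 45.1 and 42.0 CPM). These 2 were lower in each elderly than in each mature library. Mzb1, the fifth marker, averaged 3.48 CPM at 3 months and 8.33 CPM at 24 months and was not called (edgeR adjusted p = 0.219). Of the B-lineage and T-cell markers, 0 of 7 and 0 of 5 tested were called, with median log2 fold changes of 0.78 and 2.86. The B-lineage sum was 742 and 659 CPM in mature and 443 and 560 CPM in elderly libraries. Most of that sum was Ebf1 (728 and 647 CPM in mature, 416 and 541 CPM in elderly). The T-cell sum was 4.13 and 6.00 CPM in mature and 16.9 and 9.11 CPM in elderly libraries. The part of these cells in the Mfng result was not tested. None of the 3 calls held in every alternative: all were lost under the exact test (edgeR adjusted p = 0.545, 0.989 and 0.148 for Tle1, Tle2 and Mfng) and without either elderly library, and those of Tle2 (edgeR adjusted p = 0.294) and Mfng (0.0916) also without mature library 2.

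**Figure D5:**
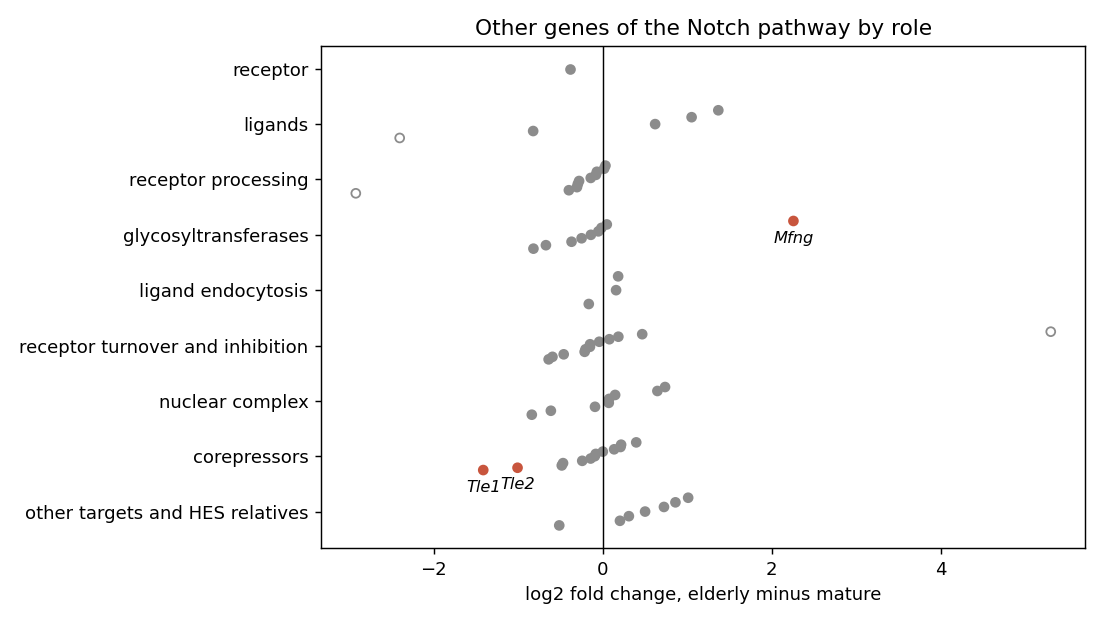
Log2 fold change between the ages (elderly minus mature) of the 68 tested pathway genes other than the 10, by role; each point is a gene, red where the adjusted p is under 0.05, and open where both libraries of 1 age had 3 counts or fewer, so that the fitted value is no measured one. Mfng, Tle1 and Tle2 are the red points.

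By role, the steps before and after the receptor showed no further call. Of the 73 listed genes, 6 had under 10% of their longest transcript countable, namely Aph1b, Numb, Aak1, Rbpj, Maml1 and Crebbp. In these a missing call does not show that the gene was level. The fourth receptor Notch4, known from endothelium, averaged 8.25 ± 0.508 CPM (SD, n = 2) at 3 months against 6.28 ± 1.01 CPM (SD, n = 2) at 24 months. The other ligands were sparse: Egfl7, a secreted Notch-binding protein of vessels, had 19 and 19 counts in mature and 32 and 33 in elderly libraries, and Dll4, an endothelial ligand, 13 and 8 against 12 and 40. Of the 10 receptor-processing genes, 0 passed, and the ADAM protease Adam10 was level at 148 and 150.1 CPM on average (log2 fold change 0.017, 95% interval −0.40 to 0.43), with Furin, the protease that cleaves the receptor precursor, at 42.6 and 34.8 CPM. Of the 3 tested genes for ligand endocytosis, 0 passed, and the ubiquitin ligase Mib1 was at 192 and 218 CPM and Mib2 at 13.8 and 12.3 CPM.

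Besides Mfng, 0 of the other 8 glycosyltransferases passed, and Pofut1, which adds fucose to the receptors, was at 88.7 and 91.7 CPM. In receptor turnover, 0 of 12 passed, with the ubiquitin ligase Nedd4 at 5100 and 4401 CPM and the Deltex gene Dtx4 at 527 and 557 CPM. In the nuclear complex, 0 of 8 passed, with the acetyltransferases Ep300 at 549 and 516 CPM and Kat2b at 93.8 and 104 CPM. Rbpj, chosen after its values were seen because it encodes the DNA-binding partner, was counted 78 and 74 times in mature and 44 and 51 times in elderly libraries (log2 fold change −0.84, standard error 0.36, edgeR adjusted p = 0.377), from 548 countable bases. Apart from Tle1 and Tle2, 0 of 11 corepressors passed, and Ctbp1 was at 305 and 353 CPM. Of 7 tested HES relatives and other targets, 0 passed, and 6 had a positive log2 fold change (median 0.50 over the 7). All 4 of the targets above had a negative one, and the difference was not tested. Of the 6, Hes5, Hes6 and Hes7 had few counts (2 and 4, 7 and 19, 5 and 15 in mature, 7 and 2, 10 and 25, 14 and 24 in elderly libraries). In these genes and in Nrarp the ages overlapped. Bhlhe40 and Bhlhe41, related repressors that many signals induce, were higher in each elderly than in each mature library (87.1 and 176 CPM, 16.1 and 29.3 CPM; edgeR adjusted p = 0.0830 and 0.150). Over these roles, edgeR gave 10 of the 68 genes an unadjusted p under 0.05, against 2399 of the 21340 genes tested. DESeq2 called 4 (5.88%), against 709 of all genes (3.32%).

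Markers of the sorted cells and of other cells gave the setting of these values. Lepr averaged 6010 and 4947 CPM and Cxcl12 12651 and 8263 CPM in mature and elderly libraries. Of 8 LEPR+ stromal markers 0 passed, but all 8 had a negative log2 fold change, with a median of −0.40. Their summed level was 26374 and 27215 CPM in mature and 16682 and 23472 CPM in elderly libraries. The pan-haematopoietic gene Ptprc was at 1.08 CPM or less in every library, from 152 countable bases. Erythroid and neutrophil lists, 5 of 7 tested genes higher in each, were summed to between 93.4 and 237 CPM and between 1148 and 2006 CPM in mature, and between 811 and 824 CPM and between 4245 and 4353 CPM in elderly libraries. Of 6 macrophage markers, 2 were called higher and 4 were not called. C1qa averaged 0.947 and 10.3 CPM in mature and elderly mice (edgeR adjusted p = 0.0169). C1qb averaged 1.25 and 13.3 CPM (edgeR adjusted p = 0.00735). The macrophage sum was 3505 and 3288 CPM in mature and 1982 and 3393 CPM in elderly libraries, most of it Vcam1.

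Cells of vessels also express Hey1, Hey2, Heyl and Notch3. For scale, Hey2 averaged 10.3 and 1.35 CPM and Hey1 44.7 and 22.7 CPM in mature and elderly mice. Of 8 endothelial markers, 7 were tested and 0 passed, with a summed level of 27.3 and 36.0 CPM in mature and 30.6 and 33.5 CPM in elderly libraries. The eighth, Tek, has 58 countable bases and was at 0, which does not bear on its expression. Of 8 mural markers, 6 were tested, Acta2 rose (2.88 to 10.2 CPM on average, edgeR adjusted p = 0.0400), and Myh11 and Abcc9, with 39 and 0 countable bases, were likewise at 0. The mural sum was 62.2 and 119 CPM in mature and 89.2 and 94.9 CPM in elderly libraries, highest in mature library 2, the library with the highest Heyl, and most of it was Rgs5 (41.5 and 92.5 CPM in mature, 58.5 and 64.0 CPM in elderly libraries). The sum of 6 megakaryocyte markers, with 0 called, was also highest there, at 49.0 and 367 CPM in mature and 189 and 310 CPM in elderly libraries. The endothelial sums of the ages overlapped, as did the mural ones, while single endothelial genes went both ways. The largest part of the endothelial mean at each age was Pecam1, at 19.2 and 10.9 CPM in mature and elderly mice. Of the 7 tested endothelial markers, 5 had a positive and 2 a negative log2 fold change, with a median of 0.48. Cdh5 was counted 16 and 19 times in mature and 36 and 141 times in elderly libraries. Stab2 averaged 2.02 and 5.07 CPM in mature and elderly mice. Cdh5 and Stab2 were higher in each elderly than in each mature library, and neither they nor Pecam1 were called. The overlap of the sums therefore does not show that endothelial RNA was level. Of the chondrocyte list, 5 of 6 were tested and 3 passed, with Acan and Hapln1 lower and Col2a1 higher, and Comp, with 14 countable bases, was at 0. Of 8 osteoblast markers, Phex and Col1a1 were called higher and Ibsp lower, and their sum was 7068 and 6430 CPM in mature and 2261 and 4237 CPM in elderly libraries. Most of it was Ibsp, and the other 7 summed to 472 and 521 CPM in mature and 816 and 900 CPM in elderly libraries. The part of these cells in the results was not tested.

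The genes whose pattern over the 4 libraries was most like that of a member were found by the Euclidean distance between log2 CPM values centred on each gene's mean, among 7039 genes with at least 10 CPM on average. For Notch3 these were Tmem109 (distance 0.059), Smad9 (0.066) and Lzts2 (0.066). For Hes1 they were Ppap2b (0.062), Basp1 (0.078) and Angptl1 (0.096), and for Jag1, Ilvbl (0.027), D16Ertd472e (0.049) and Tctn3 (0.056). Smad9, for example, was counted 419 and 442 times in mature and 319 and 728 times in elderly libraries, with elderly library 1 lowest and elderly library 2 highest as in Notch3. With 4 libraries and this many candidates, such distances only describe these libraries.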

How the data were processed

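On Galaxy, the authors removed adapters (CutAdapt), aligned the reads to mm9 (HISAT2) and assigned them to features (featureCounts). Raw counts per Ensembl transcript were deposited. Strand setting and tool versions are not given in the sources used here. Transcripts were matched to GENCODE M1 (388 of 95883 were not, at most 0.0888% of a library), and counts were summed per gene symbol. Genes with more than 2 counts in all were scaled by TMM and compared by edgeR's (4.0.16, R 4.3.3) two-sided quasi-likelihood test without covariates, with Benjamini-Hochberg adjustment over all genes. Log2 fold changes use a prior count of 0.125. Standard errors are the log2 fold change divided by the root of F.

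The members and lists were chosen with earlier results of these data known. Named are the 10 members, and of the pathway list the called genes and the 2 per role with the highest mean CPM; like genes are named for the 3 members with most counts. Symbols absent from GENCODE M1 were matched through RefSeq synonyms. Alternatives were DESeq2 1.42.0, an exact test, other filters, scalings and thresholds, a robust fit, protein-coding genes only, a prior count of 2, a replicate block and each library left out. The fits were tested on simulated data, but no outcome is given here and no result above rests on it.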

Additional observations from a re-analysis of the deposited data

How the results depend on the processing

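Of 100 values of the 10 genes under the 10 alternatives that left out no library and kept the threshold, 97 kept their direction and their side of the threshold, Heyl passed in 2 (no filter, and replicate block with an adjusted p of 0.0113) and Hey1 was lost in 1 (exact test). Of 40 values with 1 library left out, 31 did so, and 3 changed sign without ever passing, which were those of Notch3 and Jag1 given above. The number of the 10 genes called was 1 under the exact test and 1 with an absolute log2 fold change over 2 added (Hey2, with Hey1 lost), and it lay between 0 and 3 with 1 library left out (4 genes at an unadjusted p under 0.05 in each of these fits). Other pathway genes called numbered 0 under the exact test (3 unadjusted), 6 with the replicate block, 1 with the fold threshold, and 0 to 4 with 1 library left out (4 to 10 unadjusted). Transcripts of the 10 genes called numbered 2 with DESeq2, 3 without a filter, 2 with the replicate block, and 0 to 2 with 1 library left out (3 to 5 unadjusted). Over all genes, calls numbered 583, and 233 under the exact test, 1157 without a filter, 910 in the robust fit, 1262 with the replicate block, 235 with the fold threshold, and 0 to 866 with 1 library left out, where the lone library of an age is assumed to vary like the other age. The causes were not tested. The replicate numbers are shared only as numbers: across 7040 genes, the deviations of same-numbered libraries from their age means had a correlation of 0.030. Low depth limits Jag2, Dll1 and elderly Hey2, and shared bases limit Notch1 and Notch2.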
